A study of Arabidopsis thaliana with 2 samples.

Results

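The REVEILLE genes of Arabidopsis thaliana, RVE1 to RVE8, encode transcription factors with a single MYB-like repeat, and CCA1 and LHY are clock proteins of the same MYB-like family. The 10 genes were picked by locus identifier from the 33602 loci of the expression table, and the set was put together with the values of both libraries known, so that the differences below describe the set and are not evidence for it. RNA was sequenced from the main stem of hdt1 mutant plants (1 library), which carry a mutation in the HD2-type histone deacetylase gene HDT1, and of wild-type plants (WT, 1 library). Both were grown at 20 °C with 16 h of light and 8 h of dark per day and collected 35 days after flowering. The hdt1 allele, the number of plants behind a library and the hour of collection are named neither in the labels nor in the file. No group has a replicate, so no difference has a replicate check and no test between genotypes was made.

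The plant clock is a loop of repressors and activators that follow each other through the day. CCA1 and LHY accumulate around dawn and repress genes that peak later, among them the pseudo-response regulator gene TOC1. RVE4, RVE6 and RVE8 do the opposite: they bind the same evening element in promoters, recruit the LNK co-activators and switch evening genes on. RVE1, RVE2 and RVE7 stand outside the core loop, and RVE1 links the clock to auxin and to the growth of the seedling stem. Levels of all these transcripts swing over the day in seedlings and leaves.

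The deposited values are FPKM, reads scaled by gene length and by library total. The totals counted were 23070249 in the hdt1 library and 21728500 in the WT library, and a count of 0 is compatible with up to 3 reads, or 0.130 FPKM in hdt1 and 0.138 FPKM in WT at a length of 1000 bases. HDT1 itself had 5.19 FPKM in hdt1 and 52.6 FPKM in WT, in the direction of the labels. Of the stem markers, 5 of 5 genes of vessel and fibre walls were present, with a summed level of 153 FPKM in hdt1 and 49.3 FPKM in WT. The 3 phloem markers summed to 449 FPKM in hdt1 and 359 FPKM in WT. Root markers were listed at 0 in both libraries (3 of 3). The 3 epidermis markers summed to 43.8 FPKM in hdt1 and 35.3 FPKM in WT, with 1 higher and 2 lower in hdt1. The 3 green tissue markers summed to 4191 FPKM in hdt1 and 4424 FPKM in WT. The 3 seed markers summed to 0.390 FPKM in hdt1, from 3 reads of OLEO1 and 4 of SESA1, and were listed at 0 in WT. The 4 flower markers summed to 1.77 FPKM in hdt1 and 1.35 FPKM in WT. The part that tissue make-up has in the differences below was not tested, and in bulk RNA more cells of a type and more RNA per cell cannot be told apart.

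RVE1 (AT5G17300) was the member that differed most. It was at 4.95 FPKM in the hdt1 library from 210 reads, against 0.651 FPKM in the WT library from 26 reads. The fold was 7.61, with a 95% exact (Clopper-Pearson) interval from 5.05 to 11.9 that covers counting error in this pair of libraries and nothing else. With 1 FPKM added to either value, as log2((hdt1 FPKM + 1) / (WT FPKM + 1)), its ratio was 1.85. A locus was counted as higher or lower when it reached 2-fold on that scale and averaged at least 1 FPKM over the libraries. Of the 17811 loci with such an average, 2.32% were at least 2-fold higher and 0.741% at least 2-fold lower in hdt1. Of the 10 members 9 reached that average, 1 of them (RVE1) was counted as higher and 0 as lower. RVE1 reached it only through its hdt1 value. It ranked high among all loci: 53 of the 17811, RVE1 included, had a log2 ratio of at least 1.85. Among the 2055 loci with a mean within 1.5-fold of its own 2.80 FPKM, 86 (4.18%) were at least 2-fold higher and 3, RVE1 included, had a ratio as high. With a pseudocount of 5 FPKM its ratio was 0.82 and it was not counted as 2-fold, and a minimum mean of 5 FPKM leaves it out. RVE1 also overlaps a locus on the opposite strand that has no expression value here, as given further on.

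RVE2 (AT5G37260), also known as CIRCADIAN 1, was next. It stood at 9.11 FPKM in hdt1 and 5.49 FPKM in WT, from 206 and 117 reads, a fold of 1.66 (1.32 to 2.10) and a log2 ratio of 0.64. It stayed below the 2-fold limit. RVE1 and RVE2 are each other's closest kin in the set by coding sequence, sharing 68% of 819 aligned coding bases. Their promoters are shown because these are the 2 members with the largest ratios. Each runs from 250 bases before to 50 after the annotated start and is read 5′ to 3′ on the gene's strand from the RefSeq TAIR10.1 genome and annotation. Capitals mark matches to the motifs named further on.
RVE1, chr5:5692943-5693242, minus strand: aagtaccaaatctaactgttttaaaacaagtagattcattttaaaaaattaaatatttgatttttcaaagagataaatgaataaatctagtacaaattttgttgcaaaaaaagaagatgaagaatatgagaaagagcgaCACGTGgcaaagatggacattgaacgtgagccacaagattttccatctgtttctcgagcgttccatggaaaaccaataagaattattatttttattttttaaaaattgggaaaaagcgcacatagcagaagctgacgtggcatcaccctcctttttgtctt
RVE2, chr5:14753039-14753338, minus strand: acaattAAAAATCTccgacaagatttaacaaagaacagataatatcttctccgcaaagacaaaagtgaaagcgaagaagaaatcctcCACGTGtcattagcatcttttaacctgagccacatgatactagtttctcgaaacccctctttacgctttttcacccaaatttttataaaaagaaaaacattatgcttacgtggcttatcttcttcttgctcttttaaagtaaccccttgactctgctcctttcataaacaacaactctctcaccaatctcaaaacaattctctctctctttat

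**Figure D1:**
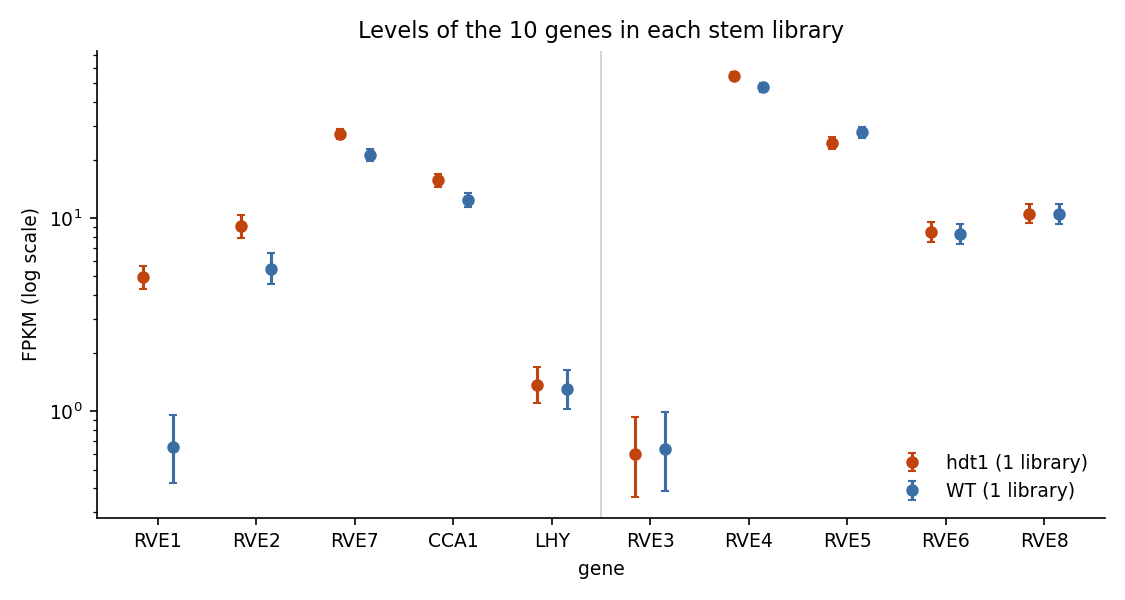
FPKM of each gene (log axis) in the hdt1 library and the WT library; points are the deposited values, bars are 95% exact Poisson intervals of the reads, and the vertical line separates the CCA1 and LHY branch from the branch of RVE8. RVE1 is at 4.95 FPKM in hdt1 and 0.651 FPKM in WT, and the bars of the libraries overlap for LHY, RVE3, RVE5, RVE6 and RVE8.

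CCA1 and LHY, the dawn repressors, were both detected, and neither reached the 2-fold limit. CCA1 (AT2G46830) was at 15.7 FPKM in hdt1 and 12.4 FPKM in WT, a fold of 1.26 (1.13 to 1.41). LHY (AT1G01060) was at 1.37 FPKM in hdt1 and 1.31 FPKM in WT, a fold of 1.05 (0.764 to 1.45) from 85 and 76 reads. The counting interval of CCA1 lay above 1 and that of LHY included 1. Per length, CCA1 exceeded LHY 11.4-fold in hdt1 and 9.53-fold in WT. RVE7 (AT1G18330, early-phytochrome-responsive 1), a relative of RVE1 that phytochrome induces in seedlings, was at 27.2 FPKM in hdt1 and 21.3 FPKM in WT, a fold of 1.28 (1.16 to 1.41). Its values are uncertain in part because a copy, AT3G10113, has the same bases at 98% of 1008 aligned coding positions and shares a run of 333 bases with it. That copy was listed at 0.0429 FPKM in hdt1, from 1 read, and at 0 in WT, and how reads that match both loci were handled is not stated in the labels.

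The branch of RVE8 was close to level between the libraries. RVE4 (AT5G02840), an activator of evening genes, was the most abundant member at 54.5 FPKM in hdt1 and 47.8 FPKM in WT, a fold of 1.14 (1.06 to 1.23). RVE8 (AT3G09600), the best studied activator of the branch, had 10.5 FPKM in hdt1 and 10.5 FPKM in WT, with an interval of the fold from 0.852 to 1.18. RVE6 (AT5G52660), which acts with RVE4 and RVE8, was at 8.48 FPKM in hdt1 and 8.29 FPKM in WT, a fold of 1.02 (0.863 to 1.21). For both RVE6 and RVE8 the counting interval included 1. RVE5 (AT4G01280), a relative with a smaller known part in the clock, was the one member with an interval below 1, at 24.5 FPKM in hdt1 and 27.8 FPKM in WT, a fold of 0.880 (0.799 to 0.970). That interval takes the library totals as they stand and ends close to 1. The log2 ratio of RVE5 was -0.18, and -0.12 with the libraries scaled to equal FPKM sums, for which no interval was computed. Whether the interval stays below 1 under another scaling was thus not tested. RVE3 (AT1G01520), also called ASG4, was barely present: 0.602 FPKM in hdt1 and 0.639 FPKM in WT, from 19 reads in either library if its length is near that of its shortest annotated transcript. Its fold of 0.942 had an interval from 0.472 to 1.88, and its mean was below 1 FPKM. RVE5 overlaps AT4G01290 on the opposite strand, which was at 37.5 FPKM in hdt1 and 30.8 FPKM in WT, and RVE3 overlaps AT1G01510 on its own strand, at 20.9 FPKM in hdt1 and 19.5 FPKM in WT. The labels do not say whether reads were counted by strand, which matters for RVE5, and for RVE3 strand could not separate the pair. How reads of these overlaps were assigned is not known. RVE1 overlaps AT5G17305 on the opposite strand, a locus that the expression table does not list. If strand was not used in counting, reads of AT5G17305 in the overlap would count toward RVE1. This was not tested.

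**Figure D2:**
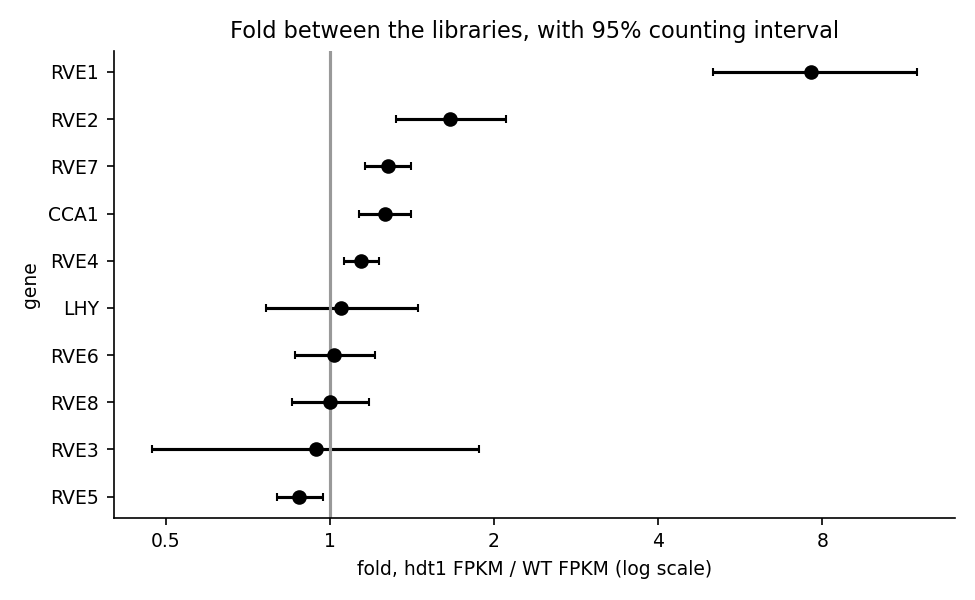
Fold of hdt1 FPKM over WT FPKM for each gene (log axis) with 95% exact intervals from the reads; the vertical line is at 1. RVE1 is at 7.61, RVE2 at 1.66, and every other gene lies between 0.880 and 1.28.

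At this depth many loci differed by more than counting error. The interval lay above 1 for 24.9% of the 17811 loci and below 1 for 29.1%. Of the 9 members that averaged 1 FPKM or more it lay above 1 for 5 (RVE1, RVE2, RVE4, RVE7 and CCA1), below 1 for 1 (RVE5) and included 1 for 3. The log2 ratio was above 0 for 8 of the 9, against 46% of all loci, but for LHY, RVE6 and RVE8 it was 0.04 or less. The median over the 9 was 0.19, beside -0.03 over all 17811 loci, whose quartiles were -0.21 and 0.18. With no filter the median over all 10 members was 0.12, beside 0.00 over all loci. In the branch of RVE1, RVE2, RVE7, CCA1 and LHY 5 of 5 ratios were above 0, with a median of 0.34 and a lowest value of 0.04. In that of RVE4, RVE5, RVE6 and RVE8, 3 of 4 were above 0, with a median of 0.02 and a highest value of 0.19. The split into branches was looked at with the values known, and no test of it was made.

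**Figure D3:**
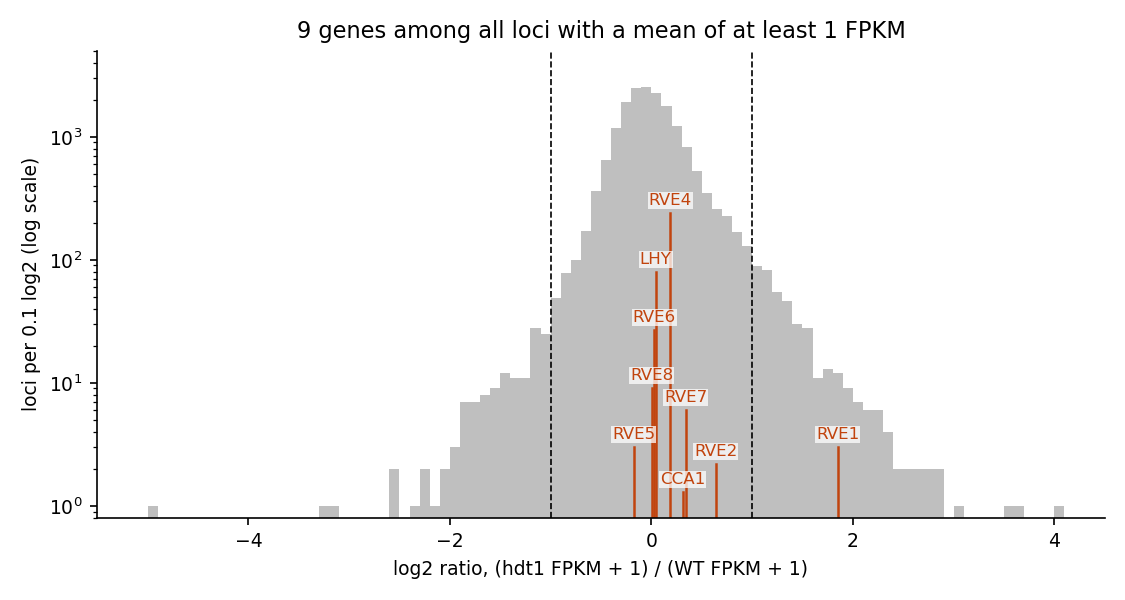
Number of loci (log axis) by log2 ratio of (hdt1 FPKM + 1) to (WT FPKM + 1) for the 17811 loci with a mean of at least 1 FPKM (grey), with the 9 members that have that mean marked in red and the 2-fold limits dashed; the heights of the red lines carry no value. RVE1 at 1.85 is the one member beyond a dashed line.

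The order of the levels was nearly the same in both libraries. In hdt1 it ran RVE4, RVE7, RVE5, CCA1, RVE8, RVE2, RVE6, RVE1, LHY and RVE3, from 54.5 to 0.602 FPKM. In WT it ran RVE4, RVE5, RVE7, CCA1, RVE8, RVE6, RVE2, LHY, RVE1 and RVE3, from 47.8 to 0.639 FPKM. Neighbours whose 95% exact Poisson intervals overlapped were RVE7 and RVE5, RVE8 and RVE2, and RVE2 and RVE6 in hdt1, and CCA1 and RVE8, RVE8 and RVE6, and RVE1 and RVE3 in WT. RVE1 and RVE3 could thus not be told apart in level in WT, whereas in hdt1 the RVE1 interval of 4.30 to 5.67 FPKM lay clear of that of RVE3, 0.362 to 0.940 FPKM. The summed level of the 10 genes was 157 FPKM in hdt1 and 136 FPKM in WT. RVE4, RVE5 and RVE7 made up 67.7% of that sum in hdt1 and 71.1% in WT. RVE1 made up 3.15% in hdt1 and 0.478% in WT.

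The branches also differ in sequence, with some overlap. The members are a family by their MYB-like repeat, and the branches were assigned by gene name. Likeness within a branch therefore describes the set and is not evidence for the split. The 63 coding bases around the signature motif of the MYB repeat, the part of these proteins that contacts DNA, are shown for all 10 because they show both how alike the genes are and how far a read could tell them apart. Capitals mark the 30 positions at which all 10 carry the same base, and the bases come from the RefSeq TAIR10.1 genome, spliced, 5′ to 3′.
RVE1: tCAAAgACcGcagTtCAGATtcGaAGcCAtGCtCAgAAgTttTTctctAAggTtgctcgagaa
RVE2: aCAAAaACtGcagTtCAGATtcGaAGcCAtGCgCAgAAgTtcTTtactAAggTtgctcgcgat
RVE7: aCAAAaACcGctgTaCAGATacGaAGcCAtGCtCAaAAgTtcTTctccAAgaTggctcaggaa
CCA1: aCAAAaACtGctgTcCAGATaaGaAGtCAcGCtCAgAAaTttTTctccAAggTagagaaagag
LHY: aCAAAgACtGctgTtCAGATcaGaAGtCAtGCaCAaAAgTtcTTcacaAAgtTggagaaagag
RVE3: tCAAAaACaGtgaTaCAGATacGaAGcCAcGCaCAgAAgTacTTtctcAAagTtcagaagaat
RVE5: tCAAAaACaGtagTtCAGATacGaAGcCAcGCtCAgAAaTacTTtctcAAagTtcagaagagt
RVE4: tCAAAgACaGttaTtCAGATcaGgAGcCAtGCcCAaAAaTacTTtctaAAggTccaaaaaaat
RVE8: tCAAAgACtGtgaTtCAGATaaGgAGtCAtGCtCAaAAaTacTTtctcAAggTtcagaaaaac
RVE6: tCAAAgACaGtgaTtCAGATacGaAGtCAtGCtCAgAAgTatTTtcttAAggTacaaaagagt
Within the branch of RVE1, RVE2, RVE7, CCA1 and LHY a pair of genes had 44 to 54 of the 63 bases in common. Within that of RVE3, RVE4, RVE5, RVE6 and RVE8 it was 48 to 57, and between the branches 38 to 45. The longest identical run between the transcripts of any pair of members was 41 bases, in RVE4 and RVE8, and RVE1 shared at most 23 bases with another member, RVE2.

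Motifs linked to the clock were searched in the same promoter window of the members and of 27443 protein-coding genes, on both strands. The G-box (CACGTG), a site of bHLH and bZIP factors, was present in 7 of the 10 members, against 7.68% of all promoters. The evening element (AAAATATCT), through which CCA1 and the RVE8 branch act, was present in RVE7 alone, against 2.82% of promoters. The CCA1 binding site (AAAAATCT) was present in RVE2 and RVE6, against 7.88%. Of the sites of the evening factor LUX, GATACG was present in RVE4, against 5.54%, and GATTCG in 0 members, against 9.58%. With 1000 bases before the start searched, GATACG was present in RVE4, RVE6 and RVE7, against 16.9%, and GATTCG in RVE4 and LHY, against 28.2%. None of these motifs contains another, and a match is a run of letters, not a bound site. The windows of 30 bases around the first G-box of each promoter are shown because this is the motif most members share, with the G-box in capitals.
RVE1, chr5:5693086-5693115, minus strand: gagaaagagcgaCACGTGgcaaagatggac
RVE2, chr5:14753234-14753263, minus strand: gaagaaatcctcCACGTGtcattagcatct
RVE3, chr1:190312-190341, plus strand: acgatcgtattcCACGTGgcaatttatgtg
RVE5, chr4:535134-535163, plus strand: acgagaccctaaCACGTGtaaaggaaacaa
RVE8, chr3:2946238-2946267, plus strand: actacaagtctaCACGTGcttcaagcttga
CCA1, chr2:19245386-19245415, plus strand: tagtgtatcagaCACGTGtcgacaaactgg
LHY, chr1:37934-37963, minus strand: ctacaatatcacCACGTGtcgatctgcgat
Their first bases lie 111 (RVE1), 163 (RVE2), 84 (RVE3), 52 (RVE5), 193 (CCA1) and 80 (LHY) bases before the annotated start, and 12 bases into the transcript in RVE8. RVE3 has another G-box within the window. The 7 members with a G-box had log2 ratios from -0.18 to 1.85 with a median of 0.04. They include RVE3, whose mean was below 1 FPKM. The 3 without it, RVE4, RVE6 and RVE7, had ratios from 0.03 to 0.34 with a median of 0.19. Whether the motif bears on the differences was not tested.

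Of the loci beside RVE1 on the chromosome that averaged at least 1 FPKM, none reached 2-fold in either direction. Its 10 neighbours were taken as 5 on either side in the TAIR10.1 gene order, among loci with an expression value. Of these, 7 averaged at least 1 FPKM, with log2 ratios from -0.31 to 0.29 and a median of -0.03. Over all 17811 loci the quartiles were narrower, at -0.21 and 0.18. AT5G17305, which overlaps RVE1, has no expression value and was passed over. The nearest with a value were AT5G17280, at 47.0 FPKM in hdt1 and 55.0 FPKM in WT, and UGP2, a UDP-glucose pyrophosphorylase gene, at 11.8 FPKM in hdt1 and 9.63 FPKM in WT. For the other members, 0 of their neighbours with that mean were at least 2-fold higher and 1, beside RVE8, was 2-fold lower. That locus, AT3G09595, is a tRNA-Ser gene with low values, 0.529 FPKM in hdt1 and 2.25 FPKM in WT. The highest log2 ratios were 0.91 for LEA14, beside RVE3, and 0.82 for NUDT4, beside RVE7. Over all loci the shares were 2.32% and 0.741%. Each of these members had only 2 to 9 neighbours with that mean, too few to set the counts against those shares.

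**Figure D4:**
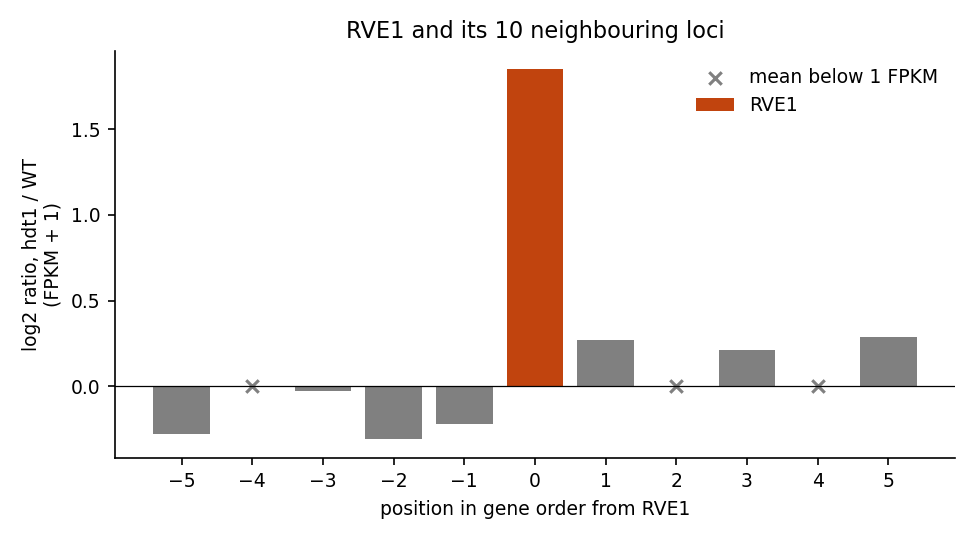
Log2 ratio of (hdt1 FPKM + 1) to (WT FPKM + 1) for RVE1 (red) and the 5 listed loci on either side in gene order; crosses are loci with a mean below 1 FPKM, which have no bar. RVE1 is at 1.85 and its neighbours lie between -0.31 and 0.29.

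The rest of the clock was described with 8 lists of 53 genes. Of these, 48 averaged at least 1 FPKM, and 0 were at least 2-fold higher or lower in hdt1, beside 2.32% and 0.741% of all loci. Their median log2 ratio was -0.02, from -0.51 to 0.64. Among the pseudo-response regulators, which follow the dawn factors in sequence through the day, PRR5 was at 51.9 FPKM in hdt1 and 33.8 FPKM in WT, a fold of 1.54 (1.44 to 1.63). TOC1, the target that CCA1 and LHY repress and RVE8 activates, was at 82.1 FPKM in hdt1 and 57.7 FPKM in WT, a fold of 1.42 (1.36 to 1.49). PRR9 and PRR7 had intervals that include 1, and PRR3 was at 31.8 FPKM in hdt1 and 38.4 FPKM in WT. The evening complex genes ELF3, ELF4 and LUX had intervals that include 1. ELF4 was at 166 FPKM in hdt1 and 160 FPKM in WT, and LUX at 98.1 FPKM in hdt1 and 102 FPKM in WT. Per length, TOC1 thus exceeded CCA1 in both libraries, by 5.23-fold in hdt1 and 4.64-fold in WT.

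Of the LNK co-activators, partners of RVE4 and RVE8, LNK2 was at 23.6 FPKM in hdt1 and 19.9 FPKM in WT, a fold of 1.18 (1.09 to 1.29), and LNK1, LNK3 and LNK4 had intervals that include 1. FKF1, a blue-light receptor of the ZTL family, was at 62.4 FPKM in hdt1 and 83.0 FPKM in WT, a fold of 0.752 (0.717 to 0.789). Casein kinase 2, which phosphorylates CCA1, was near level: its 7 subunit genes had log2 ratios from -0.16 to 0.13. COR28, a repressor of evening genes, had the highest ratio of the lists, at 83.4 FPKM in hdt1 and 53.2 FPKM in WT. Its relative COR27 was at 72.7 FPKM in hdt1 and 75.2 FPKM in WT.

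Outputs of the clock went both ways. CDF2, a repressor of flowering, was at 15.2 FPKM in hdt1 and 9.95 FPKM in WT, and its relative CDF3 at 44.0 FPKM in hdt1 and 54.0 FPKM in WT. GRP7, an RNA-binding protein gene under direct CCA1 control, was at 8848 FPKM in hdt1 and 9973 FPKM in WT. Among the 3 genes linked to RVE1 in seedlings and seeds, PORA, an enzyme of chlorophyll synthesis, was at 2.95 FPKM in hdt1 and 4.64 FPKM in WT, a fold of 0.636 (0.491 to 0.821). YUC8, an auxin synthesis gene, was listed at 0 in both libraries, and GA3OX2, of gibberellin synthesis, had 0 reads in hdt1 and 1 read in WT.

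**Figure D5:**
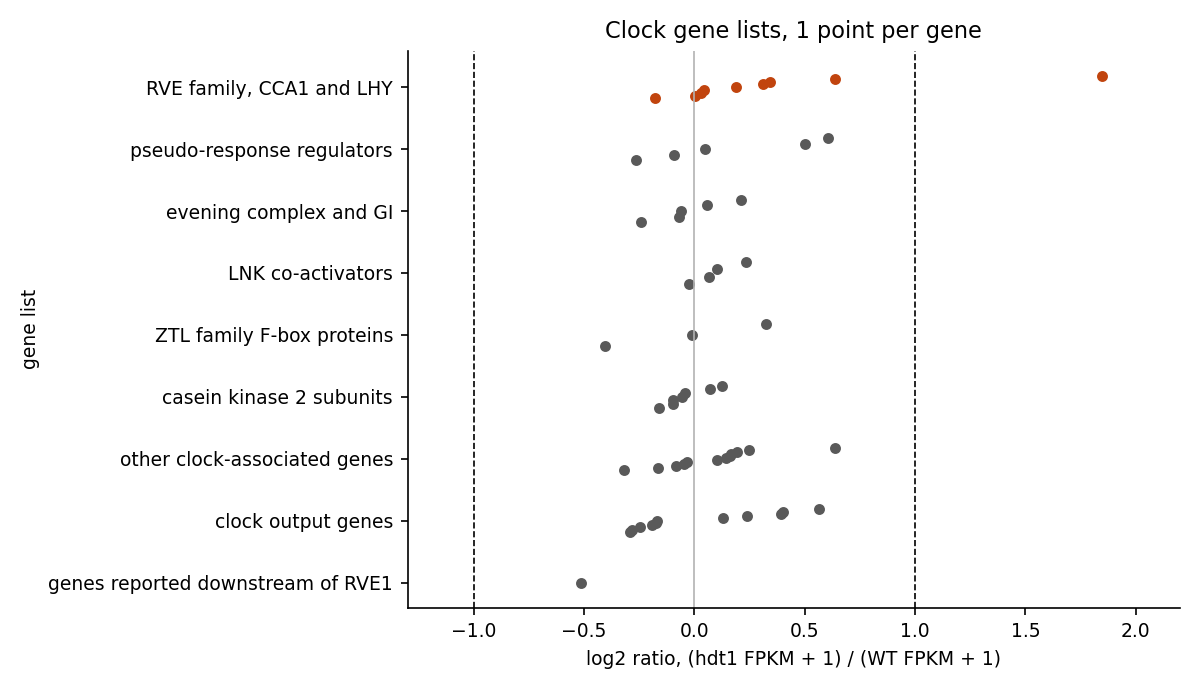
Log2 ratio of (hdt1 FPKM + 1) to (WT FPKM + 1), 1 point per gene with a mean of at least 1 FPKM, for the RVE family with CCA1 and LHY (red) and 8 other clock lists (grey); dashed lines are the 2-fold limits, and the height of a point within its row carries no value. RVE1 at 1.85 is the one point beyond a limit, and the grey points lie between -0.51 and 0.64.

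With 1 library per genotype, likeness of pattern comes down to a level in each of 2 libraries. Among the 13900 other nuclear loci with a mean of at least 5 FPKM, those nearest to RVE2, the member with that mean and the largest ratio, were AT1G54740 at 9.15 FPKM in hdt1 and 5.48 FPKM in WT, LBD4 at 9.13 FPKM in hdt1 and 5.66 FPKM in WT, and PAR2 at 8.87 FPKM in hdt1 and 5.37 FPKM in WT. For RVE1, looked at after its values were seen and among loci with a mean of at least 1 FPKM, the nearest was AT1G30080 at 5.42 FPKM in hdt1 and 0.797 FPKM in WT.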

How the data were processed

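RNA from stems was sequenced from 1 hdt1 and 1 WT library. The authors deposited FPKM values for both in 1 table, per the file headers, with 33669 features, of which 67 without a locus identifier were left out. The submitters' processing notes name TopHat2 (2.0.12), HTSeq (0.6.1) and Bowtie2 (2.2.3), and the genome build, annotation and strand setting were not given in the sources used here. Ratios of the deposited FPKM values gave whole reads for 21792 of 21796 features above 0 in both libraries (relative tolerance 1e-11), and the totals, with the multiple set by the shortest RefSeq transcript. These reads sum to 98.2% of the total in hdt1 and 97.8% in WT. The steps were also run on simulated reads drawn with the RefSeq lengths. That run could not check how well those lengths fit the deposited values. Reads served only for intervals, which cover counting error, since reads are not independent molecules.

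Log2 ratios used a pseudocount of 1 FPKM. The members, lists and named genes were chosen with earlier results of these data known: all 10 members, the clock lists, HDT1, and the loci nearest in level to a member. Symbols, gene order and sequences came from RefSeq TAIR10.1 by locus (87 of 87 listed). A planned search for related proteins was not run. Alternatives were other pseudocounts, 3 other scalings, other filters and other fold limits, and, chosen after seeing the data, a longer promoter window. Python 3.11.15, numpy 2.4.6, pandas 2.3.3 and scipy 1.17.1 were used.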

Additional observations from a re-analysis of the deposited data

How the results depend on the processing

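Of the members, 1 was at least 2-fold higher and 0 lower in hdt1, and this held under a pseudocount of 0.1, under the 3 other scalings and with no filter. The count higher was 0 with a pseudocount of 5, a minimum mean of 5 FPKM or a limit of 4-fold, and 2 (RVE1 and RVE2) with a limit of 1.5-fold. Over all loci, 413 were higher and 132 lower. These counts were 652 and 246 with a pseudocount of 0.1, 167 and 47 with a pseudocount of 5, 271 and 79 with a minimum mean of 5 FPKM, 1254 and 572 with a limit of 1.5-fold, and 37 and 11 with a limit of 4-fold, settings that change the limit, the scale or the loci by construction. The log2 ratio of RVE1 lay between 0.82 and 2.75. Each other member kept its sign, but a pseudocount cannot change a sign. The 3 scalings all raised hdt1 relative to WT, so they could change the sign only of a ratio below 0. For members above 0 the kept sign is therefore no check. The counting intervals were not computed again under these scalings. The median over members lay between 0.12 and 0.25. With 1000 bases before the start searched, a window chosen after seeing the data, the G-box was present in 7 members (14.8% of promoters), the evening element in RVE7 alone (7.24%) and the CCA1 site in 3 members in place of 2 (21.1%). Of the LUX sites, GATACG was then present in 3 members in place of 1 and GATTCG in 2 in place of 0. No paired analysis was possible because each genotype has 1 library. No library could be left out for the same reason.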
